A study of Mus musculus with 30 samples.

Results

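The transcripts described here are those of 6 metabotropic glutamate receptors, Grm2, Grm3, Grm4, Grm5, Grm7 and Grm8, taken by gene symbol from a table of 24883 rows of FPKM, a fragment count scaled to both the length of the transcript and the size of the library. Each receptor had 1 row, and all 6 passed the filter used for testing, a mean of at least 1 FPKM over the libraries, as did 13184 rows in all. RNA was sequenced from the dorsal hippocampus (dorsal CA1 in the study's methods) of 30 young adult male C57BL/6J mice, wild type in genotype, with 1 library per mouse and 6 mice in each of 5 conditions. In the object location memory (OLM) task a mouse explores 2 objects, and training for 10 min is the threshold period and 3 min the subthreshold period in this study. VEH-HC mice received the transfection reagent in vivo-jetPEI alone and stayed in the home cage with handling. VEH-T10 and VEH-T3 mice received the reagent alone and were trained for 10 min or 3 min. Y397F-T10 mice received the reagent with a plasmid for CREST whose tyrosine 397 was replaced by phenylalanine (phospho-null) and trained for 10 min, and Y397D-T3 mice received a plasmid for CREST with aspartic acid at that place (phospho-mimetic) and trained for 3 min. Phospho-null and phospho-mimetic are names from the sample labels. The paper could not detect phosphorylation of tyrosine 397 and so calls both point mutants. CREST, encoded by Ss18l1, is a subunit of the neuronal BAF chromatin remodelling complex. Both plasmids carried HA-tagged mouse Crest under the miniCaMK2 promoter, and the cells still had their own Ss18l1. The infusions were bilateral and, by the study's results text, came 3 days before training in trained mice. Tissue of trained mice was taken 1 h after training. No condition joined a plasmid with the home cage or wild-type CREST with training. Per the study's methods, the task begins with handling and repeated habituation to its chamber before training, whereas home-cage controls had no habituation. A difference between a trained condition and VEH-HC therefore covers habituation as well as training. No condition had habituation without training, so their separate parts were not tested.

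Metabotropic glutamate receptors are receptors for glutamate that signal through G proteins. Grm5 (mGluR5) belongs to group I, which couples to Gq and phospholipase C, lies mostly around the postsynaptic density and is held there by Homer and Shank scaffolds. Grm2 and Grm3 (group II) and Grm4, Grm7 and Grm8 (group III) couple to Gi/o, lower cAMP and, at presynaptic terminals, restrain transmitter release. In the hippocampus Grm5 is known from pyramidal neurons, Grm2 from granule cells and their mossy fibres, Grm3 from both glia and neurons, and Grm7 from the release sites of many terminals.

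The libraries differed in depth by a modest amount, from 0.813 to 1.25 times the median library by the spacing of low FPKM values, which come in multiples of 1 fragment, and absolute depth is unknown. No 2 libraries held identical values. Pairs of libraries correlated at r = 0.938 to 0.991 within conditions and at 0.940 to 0.991 between conditions. The 5 CA1 pyramidal markers were present in every library, at 144 to 222 FPKM in sum, and so were markers of the dentate gyrus (51.0 to 163.5 FPKM for 6 genes) and of CA3 (129.9 to 224.6 FPKM for 5 genes). Choroid plexus markers ranged from 10.4 to 12801 FPKM in sum, so the libraries differed widely in choroid plexus RNA.

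The genes lie on 5 chromosomes (GRCm38, the mm10 assembly, GENCODE vM21). Grm2 spans chr9:106643095-106656082 on the minus strand and Grm3 spans chr5:9485541-9725170 on the minus strand. Grm4 lies at chr17:27422387-27521403 on the minus strand, and Grm5 at chr7:87584168-88134907 on the plus strand. Grm7 (chr6:110645581-111567230, plus strand) and Grm8 (chr6:27275119-28135178, minus strand) are the longest, with spans of 921650 and 860060 bases. Exons of Grm2 share bases with the antisense gene Gm28111 and exons of Grm7 with the antisense gene Gm20387. Because no source used here says that the counting used strand, reads of those partners cannot be told apart.

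The sequences upstream of Grm2 and Grm8 are shown because these 2 receptors varied most between mice of one condition. They are the parts of the RefSeq promoter windows (GRCm38.p6, 250 bases before to 50 bases after an annotated start) that lie outside the annotated transcripts, read 5′ to 3′ on the minus strand, with CpG dinucleotides in capitals. RefSeq windows were found for 4 of the 6 receptors, with 1 window each for Grm2 and Grm3, 2 for Grm7 and 3 for Grm8. The first line is chr9:106656110-106656359 and the second chr6:28135179-28135396.
Grm2: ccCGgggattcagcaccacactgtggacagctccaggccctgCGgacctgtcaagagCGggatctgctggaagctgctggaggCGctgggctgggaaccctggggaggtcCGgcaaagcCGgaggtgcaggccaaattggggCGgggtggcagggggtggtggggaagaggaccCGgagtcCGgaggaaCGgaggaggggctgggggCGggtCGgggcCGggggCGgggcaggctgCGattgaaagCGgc
Grm8: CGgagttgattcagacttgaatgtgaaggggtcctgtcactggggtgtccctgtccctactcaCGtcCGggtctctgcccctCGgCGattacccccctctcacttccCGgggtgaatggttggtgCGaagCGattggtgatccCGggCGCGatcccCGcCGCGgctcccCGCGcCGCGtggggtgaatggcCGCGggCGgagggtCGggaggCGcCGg
The printed stretch of Grm2 holds 16 CpG dinucleotides and that of Grm8 holds 24, and the median over whole windows of all genes was 7. The cAMP response element half-site TGACG (either strand) was absent from the Grm2 window and from the first Grm8 window. It occurred 1 time in the second Grm8 window and is found in 20.8% of all 32851 windows. No full TGACGTCA site was found in the 7 windows of these receptors, and 1.79% of all windows hold one.

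Grm5 was the most abundant receptor transcript and Grm8 the least. Over all 30 mice the mean was 27.1 ± 2.94 FPKM for Grm5 (SD, n = 30), 19.4 ± 4.25 for Grm2, 12.2 ± 1.12 for Grm7, 11.5 ± 1.10 for Grm3, 2.50 ± 0.757 for Grm4 and 1.37 ± 0.675 for Grm8. FPKM is a level per length, so these levels can be set side by side. Grm3 exceeded Grm4 in 30 of 30 mice, and their ranges were apart in all 5 conditions. Grm4 exceeded Grm8 in 30 of 30 mice, but the ranges of the 2 transcripts overlapped in 2 conditions. The ranges of Grm7 and Grm3 overlapped in all 5 conditions, with Grm7 the higher in 22 of 30 mice, so their order was not settled within a condition. Grm5 and Grm2, and Grm2 and Grm7, overlapped in 4 of 5 conditions each.

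**Figure D1:**
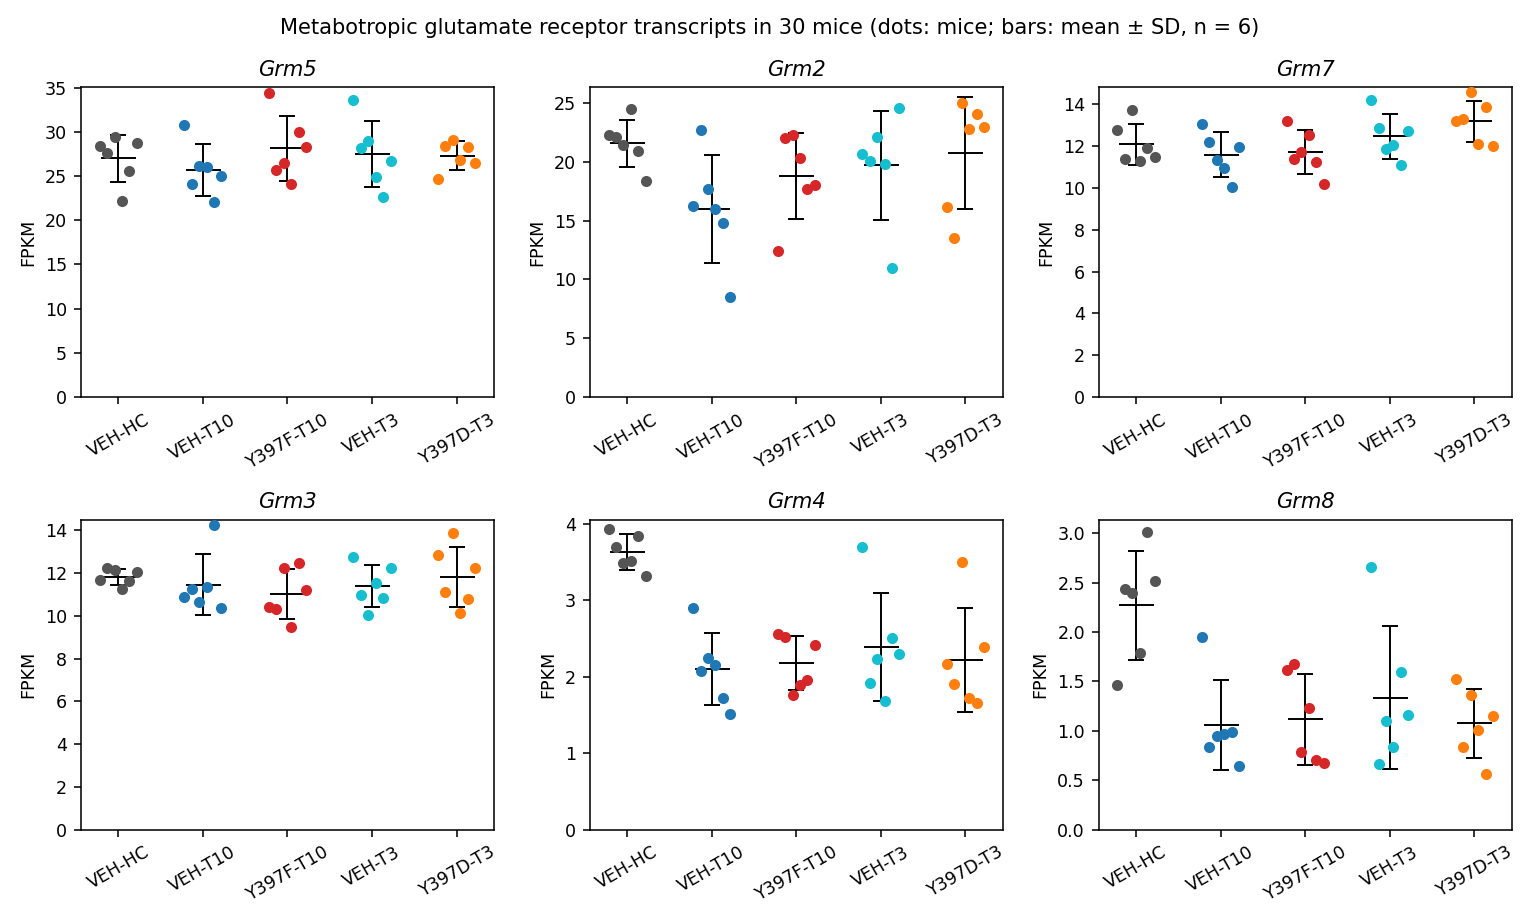
Level of each receptor transcript in FPKM (vertical axes, starting at 0) in the 5 conditions, with 1 dot per mouse and black bars for the mean ± SD of 6 mice. Grm4 and Grm8 are highest in VEH-HC, at means of 3.63 and 2.27 FPKM, whereas Grm3, Grm5 and Grm7 sit at similar levels in all 5 conditions.

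The receptors also differed in how far mice of one condition spread. The within-condition SD on the log2(FPKM + 1) scale was 0.33 for Grm2 and 0.31 for Grm8, above that of 90.2% and 88.3% of tested rows, and 0.22 for Grm4. It was 0.15 for Grm5, 0.13 for Grm3 and 0.11 for Grm7, against a median of 0.14 over all tested rows. Grm2 was tight in VEH-HC, at 18.4 to 24.4 FPKM, and wide in the trained conditions, with a lowest value of 8.53 FPKM in VEH-T10. This was not particular to Grm2. The SD was also lowest in VEH-HC for Grm3, Grm4 and, by a small margin, Grm7 (0.379, 0.233 and 0.968 FPKM), but not for Grm5 or Grm8.

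The first question was which receptor transcripts differed between trained mice and home-cage mice. Grm4 was lower than in VEH-HC in all 4 trained conditions, and Grm8 was lower in Y397D-T3, by limma on log2(FPKM + 1) with Benjamini-Hochberg adjustment over 13184 rows. The other 4 receptors did not pass in any comparison. All 4 comparisons use the same 6 VEH-HC mice, so a high VEH-HC level enters each of them. They also set mice with habituation and training against mice with neither. With bulk tissue, fewer cells of a type and less RNA per cell cannot be told apart. Of the 6 receptors, 1 was called lower in VEH-T10, 1 in VEH-T3, 1 in Y397F-T10 and 2 in Y397D-T3. The share of all tested rows called lower was 0.501% in VEH-T10, 2.94% in VEH-T3, 0.66% in Y397F-T10 and 3.16% in Y397D-T3.

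Grm4 (mGluR4), a presynaptic group III receptor, had a lowest, median and highest level of 3.31, 3.61 and 3.93 FPKM in VEH-HC. The same 3 values were 1.51, 2.11 and 2.89 FPKM in VEH-T10 and 1.75, 2.19 and 2.55 FPKM in Y397F-T10. No mouse of VEH-T10 or Y397F-T10 reached the lowest VEH-HC mouse. No overlap with lower values occurred in 1.64% of all tested rows for VEH-T10 and in 1.24% for Y397F-T10. In VEH-T3 the lowest, median and highest levels were 1.68, 2.26 and 3.70 FPKM, and in Y397D-T3 they were 1.65, 2.04 and 3.50 FPKM. In each of these 2 conditions 5 of 6 mice were below the lowest VEH-HC mouse and 1 mouse was within the VEH-HC range.

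The difference of Grm4 from VEH-HC on the log2(FPKM + 1) scale was -0.59 ± 0.12 in VEH-T10 (SE, adjusted p = 0.0221), with means of 2.098 ± 0.475 and 3.63 ± 0.233 FPKM (SD, n = 6 each). It was -0.47 ± 0.12 in VEH-T3 (adjusted p = 0.0265), where the mean was 2.39 ± 0.705 FPKM, and -0.55 ± 0.12 in Y397F-T10 (adjusted p = 0.0313), where it was 2.18 ± 0.354 FPKM. It was -0.55 ± 0.12 in Y397D-T3 (adjusted p = 0.00823), where the mean was 2.22 ± 0.683 FPKM. The mean level of Grm4 thus differed from that of VEH-HC by -42.2%, -34.3%, -39.9% and -38.9% in VEH-T10, VEH-T3, Y397F-T10 and Y397D-T3.

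Grm8 (mGluR8), also a presynaptic group III receptor, was at 1.47, 2.42 and 3.01 FPKM in VEH-HC (lowest, median and highest). In Y397D-T3 it was at 0.565, 1.08 and 1.53 FPKM, a difference of -0.66 ± 0.17 on the log2 scale (SE, adjusted p = 0.0208). There 5 of 6 mice were below the lowest VEH-HC mouse. The levels were 0.647, 0.957 and 1.95 FPKM in VEH-T10, 0.666, 1.13 and 2.66 FPKM in VEH-T3, and 0.671, 1.01 and 1.68 FPKM in Y397F-T10. The differences from VEH-HC in these 3 conditions did not pass: -0.68 ± 0.17 in VEH-T10 (adjusted p = 0.0522), -0.52 ± 0.17 in VEH-T3 (adjusted p = 0.0741) and -0.64 ± 0.17 in Y397F-T10 (adjusted p = 0.0619). The difference in VEH-T10 was as large as the one that passed in Y397D-T3. The unadjusted limma p of Grm8 was 0.000519 in VEH-T10 and 0.000715 in Y397D-T3. The adjusted p also depends on the other rows, of which more were called in Y397D-T3 (932) than in VEH-T10 (108). Grm8 in Y397D-T3 against VEH-T3 differed by -0.14 (95% interval -0.49 to 0.21, adjusted p = 0.861), so the call in Y397D-T3 alone does not set that condition apart. With a pseudocount of 0.1 in place of 1, the 4 differences of Grm8 were -1.08 in VEH-T10, -0.82 in VEH-T3, -1.01 in Y397F-T10 and -1.04 in Y397D-T3.

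**Figure D2:**
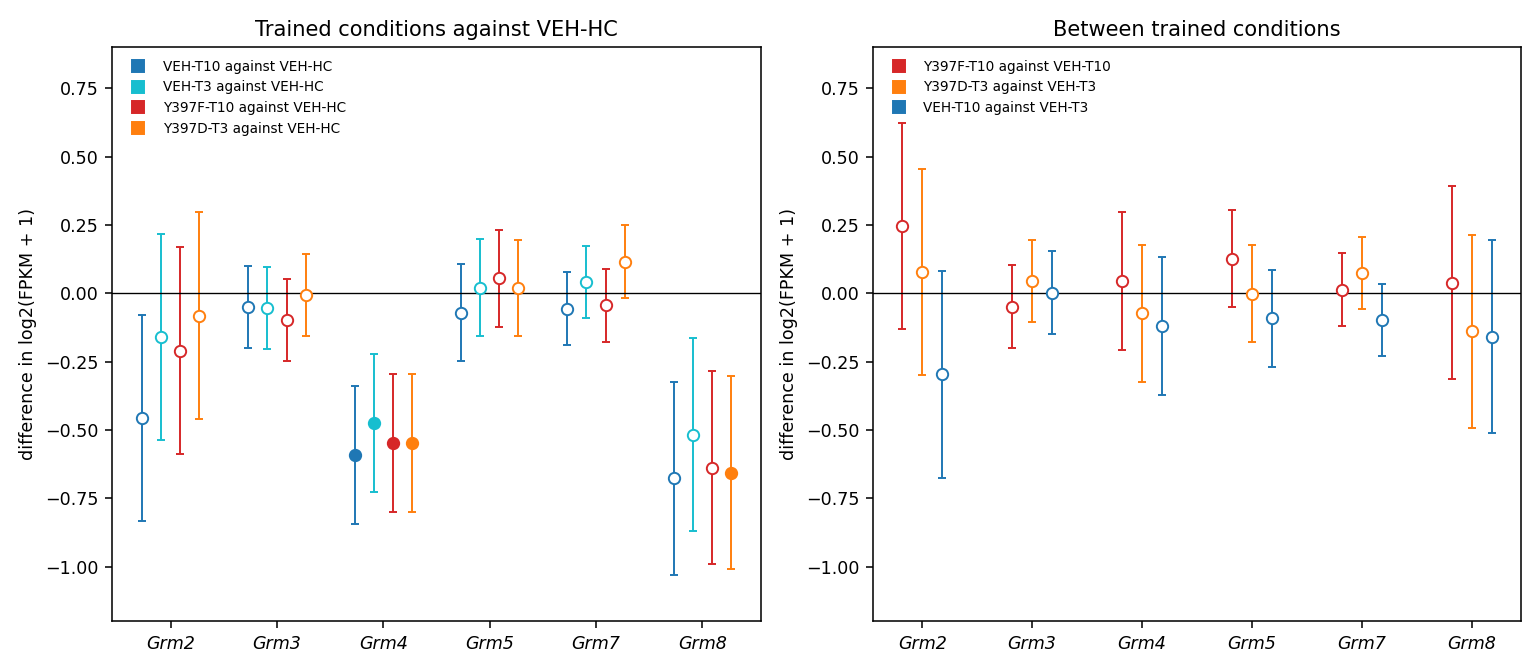
Difference of each receptor transcript in log2(FPKM + 1) between conditions (points, vertical axis), with 95% intervals from limma, for the trained conditions against VEH-HC (left) and between trained conditions (right). Filled points have an adjusted p under 0.05: Grm4 in all 4 trained conditions and Grm8 in Y397D-T3, and none on the right.

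The calls on Grm4 and Grm8 depended in part on single mice, although the direction never did. An adjusted p also depends on all other rows, and leaving out 1 mouse gave 17 to 184 calls over all rows in VEH-T10 and 485 to 1053 in Y397D-T3. Without VEH-HC mouse 2, for example, the Grm4 difference in VEH-T10 was still -0.59. With all mice the unadjusted limma p of Grm4 was 4.7e-05 in VEH-T10, 0.000635 in VEH-T3, 0.000126 in Y397F-T10 and 0.000127 in Y397D-T3. In Y397D-T3 Grm4 stayed called without any 1 of the 12 mice, with adjusted p between 0.00207 and 0.0273. In VEH-T10 it stayed called in 10 of 12 cases and was lost without VEH-HC mouse 2 (adjusted p = 0.0546) or VEH-T10 mouse 6 (0.0804). In VEH-T3 it stayed called in 6 of 12 cases. It was lost there without VEH-HC mouse 2, 4 or 5 (0.0539, 0.0554 and 0.0505) or VEH-T3 mouse 2, 3 or 4 (0.0827, 0.0616 and 0.0590). In Y397F-T10 it stayed called in 5 of 12 cases. It was lost without VEH-HC mouse 2, 4 or 5 (0.0758, 0.0682 and 0.0625) or Y397F-T10 mouse 3, 4, 5 or 6 (0.0881, 0.0591, 0.0682 and 0.0706). Centring every library on its median moved the Grm4 difference little, to -0.56 in VEH-T10, -0.45 in VEH-T3, -0.52 in Y397F-T10 and -0.51 in Y397D-T3. The call was lost in VEH-T10 (adjusted p = 0.0555), VEH-T3 (0.0599) and Y397F-T10 (0.0672) and held in Y397D-T3 (0.0195). With only the 12 libraries compared in the fit, the differences were the same by construction, Grm4 lost its call in VEH-T3 (adjusted p = 0.083) and held it in the other 3 conditions, and Grm8 was called in VEH-T10 (0.0364) as well as in Y397D-T3. The same centring changed the balance over all rows: 13 of 46, 102 of 341, 12 of 42 and 248 of 940 calls were lower in these 4 conditions (VEH-T10, VEH-T3, Y397F-T10 and Y397D-T3), beside 66 of 108, 387 of 681, 87 of 149 and 417 of 932 without it.

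For Grm8 in Y397D-T3, 9 of 12 cases stayed called. The call was lost without VEH-HC mouse 5 (adjusted p = 0.0571), Y397D-T3 mouse 2 (0.0511) or Y397D-T3 mouse 5 (0.0629). Grm8 became called in VEH-T10 without VEH-T10 mouse 1 (0.0241) and in VEH-T3 without VEH-T3 mouse 1 (0.0121). In Y397F-T10 it became called without VEH-HC mouse 1 (0.0480), Y397F-T10 mouse 1 (0.0312) or Y397F-T10 mouse 2 (0.0390).

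**Figure D3:**
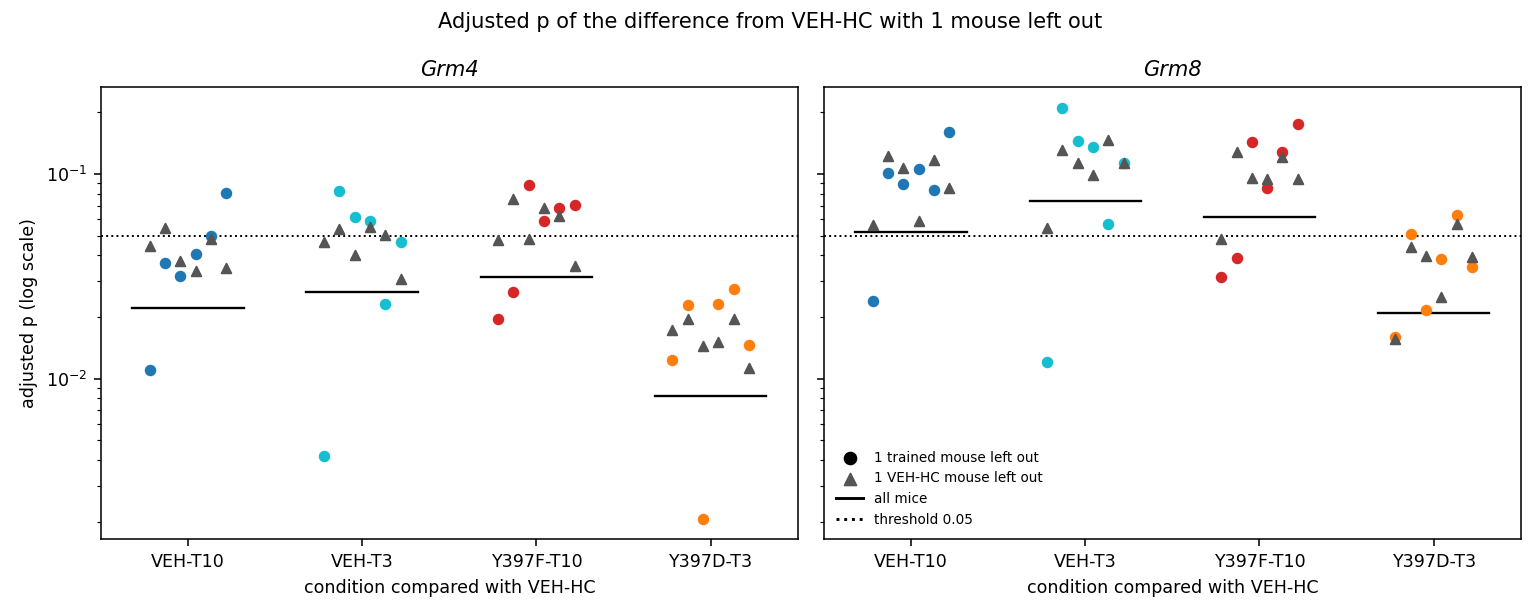
Adjusted p (log axis) of the difference from VEH-HC for Grm4 (left) and Grm8 (right), with 1 mouse left out at a time: circles for a trained mouse, triangles for a VEH-HC mouse, a black line for all mice and a dotted line at 0.05. For Grm4 all 12 points of Y397D-T3 lie under the dotted line, against 10 in VEH-T10, 6 in VEH-T3 and 5 in Y397F-T10. The adjusted p also depends on all other tested rows of the same comparison.

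Several marker lists of other cell types and neighbouring tissue also differed in level between VEH-HC and the trained conditions, with few of their genes called by limma. For comparison, 59.7%, 61.0%, 63.7% and 59.6% of all tested rows had a lower mean than VEH-HC in VEH-T10, VEH-T3, Y397F-T10 and Y397D-T3, and 0.501%, 2.94%, 0.66% and 3.16% were called lower. All 6 tested thalamus markers had a lower mean in each trained condition, with 1, 0, 1 and 2 of them called in that order and 4, 1, 2 and 4 at an unadjusted p under 0.05. Slc17a6 was the only thalamus marker called in VEH-T10 and Y397F-T10, and it was among those called in Y397D-T3. The sum of the 8 thalamus markers was 29.1 to 41.1 FPKM in VEH-HC, and it was 20.4 to 35.2 in VEH-T10, 24.2 to 51.5 in VEH-T3, 19.2 to 31.6 in Y397F-T10 and 21.96 to 35.4 in Y397D-T3. Of these markers Gbx2 was at 0 in 15 libraries, and no other was at 0 in any library. The sum of the 6 deep cortical markers was 36.4 to 46.8 FPKM in VEH-HC, and it was 24.3 to 34.6 in VEH-T10, 24.5 to 51.3 in VEH-T3, 26.7 to 43.8 in Y397F-T10 and 28.002 to 40.4 in Y397D-T3. Of the 4 tested deep cortical markers 3, 3, 4 and 4 had a lower mean in VEH-T10, VEH-T3, Y397F-T10 and Y397D-T3, 1, 0, 0 and 1 were called and 3, 3, 3 and 2 had an unadjusted p under 0.05. All 6 choroid plexus markers had a lower mean on the log2 scale in all 4 trained conditions, of which limma called 0 in each and 3, 0, 0 and 5 had an unadjusted p under 0.05. Their sum ran from 918 to 5607 FPKM in the home cage, and the trained ranges overlapped it, at 10.4 to 4477 (VEH-T10), 29.9 to 12801 (VEH-T3), 28.8 to 10415 (Y397F-T10) and 14.2 to 2842 FPKM (Y397D-T3). Of 8 interneuron markers 7, 7, 7 and 6 had a lower mean, with 0 called by limma in each condition and 3, 4, 3 and 3 at an unadjusted p under 0.05. The 5 CA3 markers went the other way, with 5, 3, 4 and 5 of them higher in mean, 1, 1, 0 and 1 called higher and 3, 2, 1 and 3 at an unadjusted p under 0.05. The other lists were mixed: of 5 CA1 markers 4, 3, 3 and 3 had a lower mean on the log2 scale, and 1 was called higher in Y397D-T3. Of 6 dentate markers 3, 3, 2 and 0 were lower, and of 6 astrocyte markers 3, 4, 4 and 6. Of 5 oligodendrocyte markers 4, 2, 5 and 4 were lower, and no dentate, astrocyte or oligodendrocyte marker was called. The part of these tissues and cell types in the lower Grm4 and Grm8 was not tested.

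Grm2 (mGluR2), a group II autoreceptor, was at 18.4, 21.8 and 24.4 FPKM in VEH-HC and at 8.53, 16.1 and 22.7 FPKM in VEH-T10 (lowest, median and highest). In VEH-T10, 5 of 6 mice were below the lowest VEH-HC mouse and the mean differed by -25.9%. The difference of -0.46 ± 0.18 on the log2 scale had an unadjusted p of 0.0199 and did not pass after adjustment (adjusted p = 0.232). At an unadjusted p under 0.05, 14.9% of all tested rows pass in this comparison. In VEH-T3, Y397F-T10 and Y397D-T3 the Grm2 differences were -0.16, -0.21 and -0.08, with 95% intervals of -0.54 to 0.22, -0.59 to 0.17 and -0.46 to 0.30. The intervals leave room for changes of Grm2 in either direction.

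Grm5, Grm7 and Grm3 were the receptors with the narrowest intervals. Grm5 had a median of 27.98 FPKM in VEH-HC and of 25.5 in VEH-T10, 27.4 in VEH-T3, 27.4 in Y397F-T10 and 27.5 in Y397D-T3, and its differences from VEH-HC ran from -0.07 to 0.06 on the log2 scale. The 95% intervals of the 4 Grm5 differences together spanned -0.25 to 0.23, so a change of the size of that of Grm4 lies outside them. Grm3 differences ran from -0.10 to -0.01 (intervals within -0.25 and 0.14), with medians of 10.8 to 11.85 FPKM in all 5 conditions. Grm7 was at 11.3, 11.7 and 13.7 FPKM in VEH-HC and at 12.01, 13.2 and 14.6 FPKM in Y397D-T3. All 6 Y397D-T3 mice were above the VEH-HC median of Grm7, and the difference was 0.12 (95% interval -0.02 to 0.25, adjusted p = 0.269). In the other 3 trained conditions the Grm7 differences were -0.06 to 0.04.

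The second question was whether a CREST plasmid changed the receptor transcripts at the same training time, and whether 10 min and 3 min of training differed. No receptor was called in any of these 3 comparisons, and none had an unadjusted p under 0.05. Limma called 0 of 13184 rows in Y397F-T10 against VEH-T10 (0%, with 3.78% at an unadjusted p under 0.05). It called 1 row in Y397D-T3 against VEH-T3 (0.00758%, with 7.87% unadjusted) and 6 rows in VEH-T10 against VEH-T3 (0.0455%, with 8.15% unadjusted). Between Y397F-T10 and VEH-T10 Grm4 differed by 0.04 (95% interval -0.21 to 0.30), Grm8 by 0.04 (-0.31 to 0.39) and Grm2 by 0.25 (-0.13 to 0.62). Between Y397D-T3 and VEH-T3 Grm4 differed by -0.07 (-0.33 to 0.18) and Grm7 by 0.07 (-0.06 to 0.21). Between VEH-T10 and VEH-T3 Grm2 differed by -0.30 (-0.67 to 0.08), Grm4 by -0.12 (-0.37 to 0.13) and Grm7 by -0.10 (-0.23 to 0.04). The Grm4 intervals of these 3 comparisons reach from -0.37 to 0.30 and so do not hold its differences from VEH-HC, whereas the intervals of Grm2 and Grm8 are too wide to show that these transcripts were alike.

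Receptor levels were also set against the levels of cell type and tissue markers across the 30 mice. A marker score, the mean log2(FPKM + 1) of the tested markers of a list, was related to each receptor for 9 lists, which makes 54 relations, and permutation p-values (2-sided, 100000 permutations) were adjusted over the 54. In 16 relations the adjusted p was under 0.05. Grm4 and Grm8 shared the same 4 scores and Grm5 and Grm7 shared both glial scores, and no test compared one receptor with another. All libraries contribute both values, and a score and a receptor share the library's composition.

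Grm4 was positively related to the deep cortical score (Pearson's r = 0.85, permutation p = 1e-05, adjusted p = 0.00018, with 1e-05 the smallest p that the permutations can give, and Spearman's rho = 0.73, p = 2e-05, adjusted p = 0.00036). Without the 2 mice farthest from the median score r was 0.83, and with the mean of each condition subtracted it was 0.75 (adjusted p = 0.00369). Grm8 followed the same score (r = 0.79, permutation p = 1e-05, adjusted p = 0.00018, rho = 0.76, p = 1e-05, adjusted p = 0.00036), with r = 0.73 without the 2 farthest mice and 0.66 within conditions (adjusted p = 0.0048). Among the 24 trained mice the same mouse, VEH-T3 mouse 1, had the highest Grm4 (3.70 FPKM), the highest Grm8 (2.66 FPKM) and the highest deep cortical score (3.45). VEH-T10 mouse 6 had the lowest Grm4 (1.51 FPKM) and the lowest deep cortical score (2.30).

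The thalamus score was related to Grm4 (r = 0.67, permutation p = 4e-05, adjusted p = 0.00045, rho = 0.61, p = 0.00044, adjusted p = 0.00306) and to Grm8 (r = 0.67, permutation p = 7e-05, adjusted p = 0.00054, rho = 0.60, p = 0.00051, adjusted p = 0.00306). Without the 2 farthest mice these were 0.57 and 0.54. The thalamus score includes Slc17a6, the row most like Grm4 over the 30 libraries (r = 0.90). Within conditions the relation no longer held, at r = 0.20 for Grm4 (adjusted p = 0.422) and r = 0.31 for Grm8 (adjusted p = 0.227). The relations of Grm4 and Grm8 to the CA3 score (r = -0.59 and -0.54, rho = -0.59 and -0.54, adjusted permutation p for r = 0.00185 and 0.00652) did not hold within conditions either, at -0.36 and -0.30. Those to the interneuron score (r = 0.63 and 0.56, rho = 0.66 and 0.58, adjusted permutation p for r = 0.00172 and 0.00598) held within conditions, at 0.62 and 0.50.

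Grm2 followed the dentate granule cell score (r = 0.71, permutation p = 5e-05, adjusted p = 0.00045, rho = 0.61, p = 0.00047, adjusted p = 0.00306), with r = 0.56 without the 2 farthest mice and 0.76 within conditions (adjusted p = 0.00162). The 3 trained mice with the lowest Grm2 were VEH-T10 mouse 6 (8.53 FPKM), VEH-T3 mouse 5 (10.97 FPKM) and Y397F-T10 mouse 1 (12.4 FPKM). Y397F-T10 mouse 1 and VEH-T10 mouse 6 also had the 2 lowest dentate scores of the 24 (2.59 and 2.77), and VEH-T3 mouse 5 was at 3.06. VEH-T3 mouse 1 went against this order, with a dentate score of 2.80 and 20.6 FPKM of Grm2. The relation of Grm2 to the CA3 score was negative (r = -0.65, permutation p = 0.00021, adjusted p = 0.00113) but weaker in rank (rho = -0.36, p = 0.0514, adjusted p = 0.126). It stood at -0.45 without the 2 farthest mice and at -0.68 within conditions.

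Grm3 followed the CA1 score (r = 0.66, permutation p = 8e-05, adjusted p = 0.00054, rho = 0.68, p = 1e-04, adjusted p = 0.0013), with r = 0.57 without the 2 farthest mice and 0.65 within conditions. It also followed the interneuron score (r = 0.51, rho = 0.54, adjusted permutation p for r = 0.0156, within conditions 0.49). The relations of Grm3 to the astrocyte score (r = -0.02, adjusted permutation p = 0.958) and the oligodendrocyte score (r = 0.11, adjusted permutation p = 0.627) did not pass. Grm5 and Grm7 ran against the glial scores. Against the astrocyte score Grm7 had r = -0.73 (permutation p = 1e-05, adjusted p = 0.00018, rho = -0.69, p = 2e-05, adjusted p = 0.00036) and Grm5 had r = -0.69 (permutation p = 5e-05, adjusted p = 0.00045, rho = -0.62, p = 0.00031, adjusted p = 0.00279). Without the 2 farthest mice these were -0.69 and -0.55, and within conditions -0.72 and -0.70. Against the oligodendrocyte score Grm5 had r = -0.65 (rho = -0.45, adjusted permutation p for r = 0.00102) and Grm7 had r = -0.50 (rho = -0.45, adjusted permutation p for r = 0.0159), and within conditions they were at -0.71 and -0.68. Mouse 1 of VEH-T10, of VEH-T3 and of Y397F-T10 stood apart here, with the 3 lowest astrocyte scores (6.25, 6.25 and 6.20) and the 3 lowest oligodendrocyte scores (7.13, 7.14 and 7.02) among trained mice and the 3 highest Grm5 levels (30.7, 33.6 and 34.4 FPKM). Without these 3 mice, a choice made after the data were seen, the relation to the oligodendrocyte score no longer passed for Grm5 (r = -0.38, adjusted permutation p = 0.154) or Grm7 (r = -0.36, adjusted permutation p = 0.162). The astrocyte relation then stood at -0.48 for Grm5 (adjusted permutation p = 0.0415) and -0.70 for Grm7 (adjusted permutation p = 0.00036), and the other 12 of the 16 relations also passed.

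**Figure D4:**
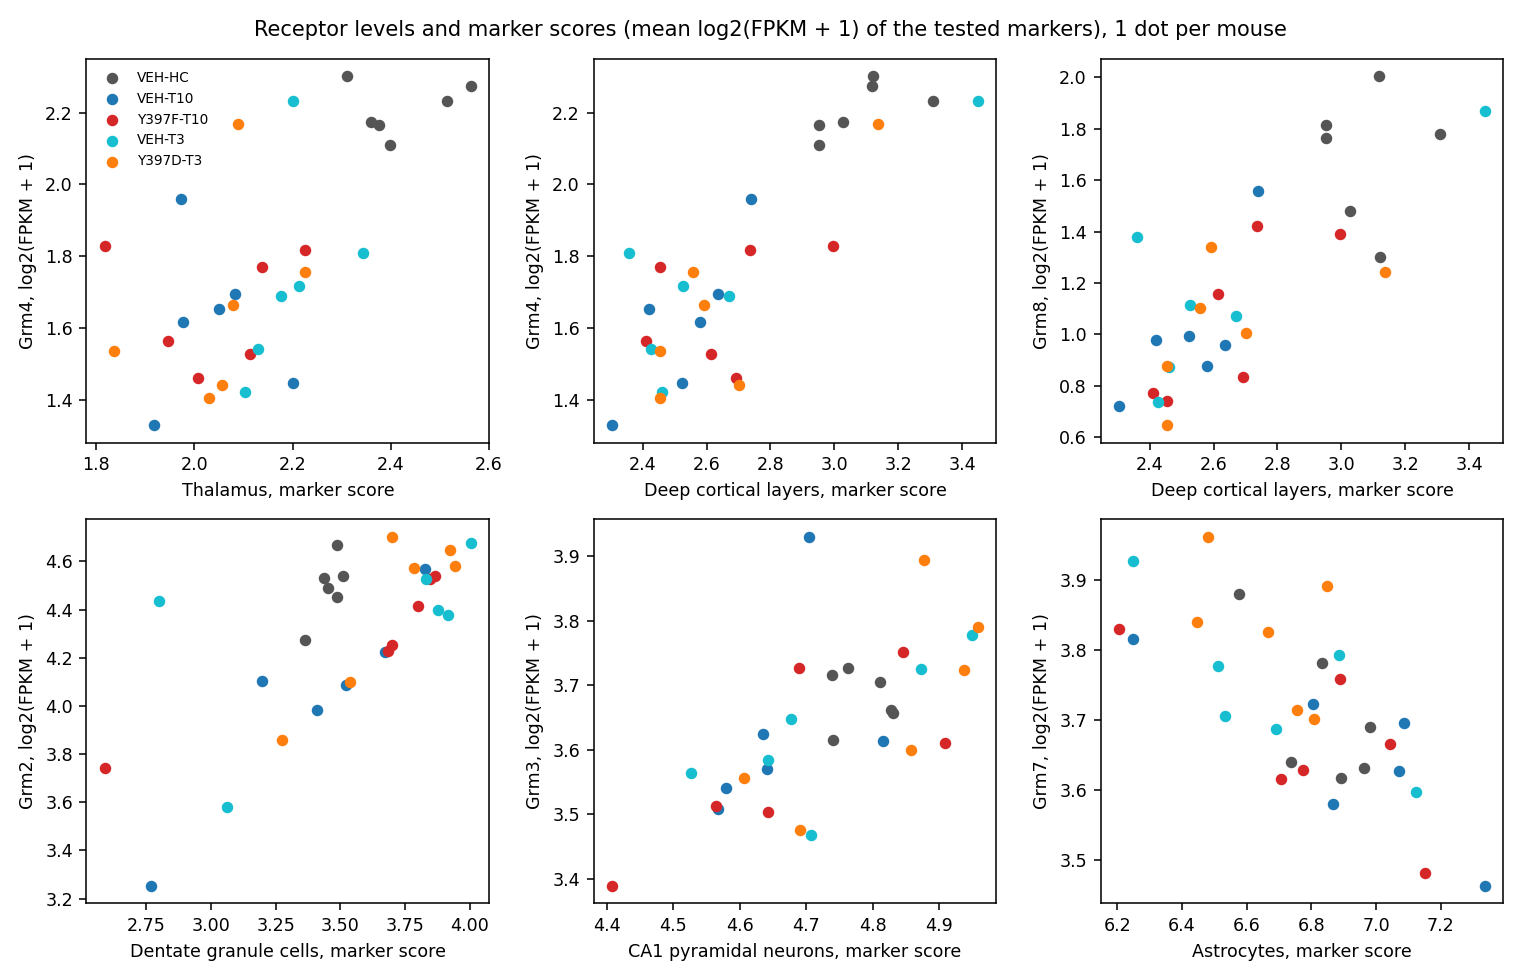
Receptor level in log2(FPKM + 1) (vertical axes) against a marker score, the mean log2(FPKM + 1) of the tested markers (horizontal axes), with 1 dot per mouse coloured by condition. Grm4 and Grm8 increase with the deep cortical score (r = 0.85 and 0.79), Grm2 with the dentate granule cell score (0.71) and Grm3 with the CA1 score (0.66), Grm7 runs against the astrocyte score (-0.73), and the thalamus panel of Grm4 separates VEH-HC from most trained mice.

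The rows most like each receptor, by Pearson's r over the 30 libraries, differed from receptor to receptor. Those most like Grm4 were Slc17a6 (r = 0.90), which encodes the vesicular glutamate transporter VGLUT2 and is itself in the thalamus list, Sgpp2 (0.89), a sphingosine-1-phosphate phosphatase, and Klhdc8a (0.87). Grm8 was most like Plekha7 (0.91), an adherens junction protein, Cds1 (0.88), a CDP-diacylglycerol synthase, and Slc35f1 (0.88). With condition means subtracted the r of these 6 rows was 0.76 to 0.86. Grm2 was most like Tiam1 (0.93), an activator of Rac, Pde1b (0.91), a calmodulin-dependent phosphodiesterase, and Lrrtm4 (0.90), a synaptic adhesion protein. Grm5 was most like Scn2a1 (0.94), a neuronal sodium channel, Akap6 (0.91), a kinase anchor, and Pak3 (0.90), a kinase. Grm7 and Grm3 had looser neighbours: Sgip1, Lrfn5 and Btrc at 0.74 to 0.76 for Grm7, and Fermt2, Rcan2 and Itfg2 at 0.60 to 0.63 for Grm3. Among the receptors themselves Grm4 and Grm8 were most alike (r = 0.85, and 0.70 with condition means subtracted), followed by Grm5 and Grm7 (0.53 and 0.59). The other 13 pairs had r between 0.02 and 0.31.

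The genes that work with these receptors were taken from 4 lists and tested in the same fit. These lists were chosen with earlier results of these data known, so their counts beside all rows are descriptive only. By its own test, the paper had already reported Homer1 and Homer3 as upregulated in VEH-T10 and Y397D-T3. Of 17 binding partners and scaffolds, 1, 2, 1 and 4 were called higher than VEH-HC in VEH-T10, VEH-T3, Y397F-T10 and Y397D-T3, beside 0.319%, 2.23%, 0.47% and 3.91% of all tested rows, and 1 was called lower in VEH-T3. Homer1, the scaffold of group I receptors whose short form is an activity-induced transcript, was higher in all 4. FPKM per gene does not separate the short form from the other forms, so which of them was higher was not tested. Its mean was 16.1 ± 1.15 FPKM in the home cage (SD, n = 6), and the trained means were 21.9 ± 2.56 (VEH-T10), 22.4 ± 2.02 (VEH-T3), 23.5 ± 2.68 (Y397F-T10) and 22.1 ± 1.73 (Y397D-T3). The log2 differences of Homer1 were 0.42, 0.45, 0.51 and 0.44, with adjusted p of 0.00959, 0.00393, 0.00147 and 0.00159, in the same comparisons in which Grm5 itself did not pass. Homer2 was called higher in VEH-T3 (0.35) and Y397D-T3 (0.29), Homer3 (0.32) and Shank3 (0.27) in Y397D-T3, and the G protein regulator Rgs4 was lower in VEH-T3 (-0.39). The median difference of this list was 0.04, 0.09, 0.09 and 0.16, beside -0.03, -0.04, -0.04 and -0.03 over all tested rows.

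Of 10 Gq signalling genes, 0, 2, 1 and 3 were called higher in VEH-T10, VEH-T3, Y397F-T10 and Y397D-T3, and none was called lower, where 0.319%, 2.23%, 0.47% and 3.91% of all tested rows were called higher. They were Gnaq, the alpha subunit of Gq (0.25 in VEH-T3, 0.23 in Y397F-T10 and 0.31 in Y397D-T3), Prkca, a protein kinase C (0.31 in VEH-T3 and 0.33 in Y397D-T3), and Dagla, which makes the endocannabinoid 2-arachidonoylglycerol (0.35 in Y397D-T3). The median difference of the Gq list was 0.05, 0.12, 0.14 and 0.13 in that order. Of 17 Gi/o signalling genes 0, 1, 0 and 2 were called higher, beside the same shares of all rows, and none lower. They were the adenylyl cyclase Adcy9 (0.18 in VEH-T3 and 0.26 in Y397D-T3) and the potassium channel subunit Kcnj6 (0.42 in Y397D-T3), and the medians of that list were -0.02, -0.04, -0.02 and -0.06.

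Of 8 genes of glutamate transport and metabolism, 1 was called lower in VEH-T10, Y397F-T10 and Y397D-T3 (beside 0.501%, 0.66% and 3.16% of all tested rows) and none in VEH-T3, and none was called higher. That gene was Slc17a6, the row most like Grm4, and the same calls are counted above among the thalamus markers. Its mean was 4.39 ± 0.629 FPKM in the home cage and 1.66 ± 0.898 (VEH-T10), 2.49 ± 1.88 (VEH-T3), 1.49 ± 0.353 (Y397F-T10) and 1.92 ± 1.02 FPKM (Y397D-T3) after training (SD, n = 6). Slc17a7, the vesicular transporter of hippocampal pyramidal neurons, was at 583 ± 40.1 FPKM in VEH-HC and differed by -0.10 to 0.10 on the log2 scale, with no call. In the comparisons between trained conditions limma called none of the 52 tested genes of the 4 lists, and at an unadjusted p under 0.05 there were 2 for the phospho-null plasmid (3.85%), 8 for the phospho-mimetic plasmid (15.4%) and 6 for the training time (11.5%). The same shares over all tested rows were 3.78%, 7.87% and 8.15%.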

How the data were processed

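Per the labels and the study's methods, RNA with a RIN of at least 7 was sequenced as 150-base read pairs on 2 Illumina platforms, with no assignment of libraries to platforms. The authors aligned reads to mm10 with TopHat2 2.1.1 and computed FPKM with Cufflinks 2.2.1, versions from the submitters' processing notes; the deposited FPKM values were used as they are. The study's Cyber-T test was not available, so limma 3.58.1 (R 4.3.3) was used on log2(FPKM + 1), with rows of mean FPKM of at least 1, 1 coefficient per condition over 30 libraries, a variance trend, Benjamini-Hochberg adjustment and a threshold of 0.05. The pseudocount of 1 understates changes of low transcripts. Fits were tested on simulated data. Python 3.11.15 was used for levels, permutations and plots. Members, lists and tests were chosen with earlier results of these data known. Named genes are the 6 receptors, the 3 rows most correlated with each, and at most 4 called genes per list and comparison, by size of change. Replicate numbers belong to different mice. Limma p-values set a difference of means against the spread between mice within conditions, pooled over the 30 libraries. Read totals are not in FPKM, so precision is given by that spread.

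Scores use the tested markers of each list. The lists are thalamus (8 genes, 6 tested), CA1 pyramidal neurons (5), dentate granule cells (6), CA3 pyramidal neurons (5), deep cortical layers (7 symbols listed, 6 in the table, 4 tested), interneurons (8), astrocytes (6), oligodendrocytes (5) and choroid plexus (6). Of the deep cortical symbols, Ctgf and Ccn2 name the same gene, and only Ccn2 is absent from the table. Slc17a6 is in both the thalamus and the glutamate transport list, and Slc1a3 in both the astrocyte and the glutamate transport list. Alternatives tried were a pseudocount of 0.1, no filter, median-centred libraries, unadjusted p, only the 12 libraries compared, a replicate block, each library left out, and rows of a symbol summed.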

Additional observations from a re-analysis of the deposited data

Results flagged for a closer look

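A sample lay far from the other 5 of its condition, by Dixon's criterion on the gap to the nearest value, in 3 of the 30 sets of 6 mice tested, where chance gives about 1 in 20. Grm2 in VEH-T3 mouse 5 was at 10.97 FPKM, below the 19.8 to 24.6 FPKM of the other mice. Grm3 in VEH-T10 mouse 5 was at 14.2 FPKM, above the 10.4 to 11.3 FPKM of the others. Grm8 in VEH-T10 mouse 1 was at 1.95 FPKM, above the 0.647 to 0.991 FPKM of the others.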

How the results depend on the processing

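Over 798 alternative values of the 42 receptor differences, 764 kept the direction and 731 also their side of the threshold. The number of receptors called against VEH-HC was 1, 1, 1 and 2 in VEH-T10, VEH-T3, Y397F-T10 and Y397D-T3. With median-centred libraries it was 0 in VEH-T10, 0 in VEH-T3 and 0 in Y397F-T10, although Grm4 there still differed by -0.56, -0.45 and -0.52, beside -0.59, -0.47 and -0.55 without centring. With only the 12 libraries compared it was 2 in VEH-T10, where Grm8 was gained, and 0 in VEH-T3, where Grm4 was lost. At an unadjusted p it was 3 in VEH-T10, 2 in VEH-T3 and 2 in Y397F-T10. Leaving out 1 library gave 0 to 2 in VEH-T10, 0 to 2 in VEH-T3, 0 to 2 in Y397F-T10 and 1 to 2 in Y397D-T3. The replicate block gave 2 in VEH-T10, where Grm8 passed (adjusted p = 0.0439), and changed no other receptor call. With condition means subtracted, 1 to 3 of 6 same-numbered pairs in each comparison correlated above 0.1. The median r of these pairs ran from -0.19 in Y397F-T10 against VEH-HC to 0.24 in VEH-T10 against VEH-T3. Whether mice of the same number shared any handling was not tested.

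Over all rows, 108, 681, 149 and 932 were called against VEH-HC in VEH-T10, VEH-T3, Y397F-T10 and Y397D-T3. Median-centred libraries gave 46, 341, 42 and 940, the 12 libraries compared gave 321, 0, 43 and 1845, an unadjusted p gave 1964, 2845, 2232 and 3287, and leaving out 1 library gave 17 to 184, 155 to 1289, 7 to 402 and 485 to 1053. In VEH-T10 against VEH-T3 the 6 calls became 0 with median-centred libraries, the replicate block or the 12 libraries alone. The 1 call in Y397D-T3 against VEH-T3 became 0 under these 3 settings and without the filter. The cause was not tested.

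With condition means subtracted, the relations of Grm4 and Grm8 to the thalamus score fell to r = 0.20 and 0.31, and those to the CA3 score stood at -0.36 and -0.30. The other 12 of the 16 relations also passed within conditions, where 7 more came to pass: Grm4 with astrocytes and oligodendrocytes, Grm8 with astrocytes, and Grm5 and Grm7 each with thalamus and deep cortical layers. All 16 passed without the 2 farthest mice, where 4 more passed. Without mouse 1 of VEH-T10, VEH-T3 and Y397F-T10, chosen after seeing the data, 14 passed and 2 more came to pass, and the oligodendrocyte relations of Grm5 and Grm7 were lost (r = -0.38 and -0.36).

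Some differences near 0 changed sign. With median-centred libraries Grm3 in Y397D-T3 against VEH-HC was 0.030 and Grm5 in Y397D-T3 against VEH-T3 was 0.015. Leaving out 1 library moved Grm5 against VEH-HC between -0.038 and 0.072 in VEH-T3, between -0.0023 and 0.097 in Y397F-T10 and between -0.033 and 0.047 in Y397D-T3, and in Y397D-T3 it moved Grm2 between -0.14 and 0.028 and Grm3 between -0.051 and 0.033. In Y397F-T10 against VEH-T10 it moved Grm3 between -0.082 and 0.012, Grm4 between -0.013 and 0.11, Grm7 between -0.025 and 0.049 and Grm8 between -0.035 and 0.15. In Y397D-T3 against VEH-T3 it moved Grm2 between -0.072 and 0.19, Grm4 between -0.17 and 0.025, Grm5 between -0.053 and 0.057 and Grm8 between -0.23 and 0.00043. In VEH-T10 against VEH-T3 it moved Grm3 between -0.057 and 0.033. None of these had an adjusted p under 0.05. Absolute depth is unknown, so for the low transcripts Grm4 and Grm8 the counting error could not be separated from the spread between mice.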
